A study of Mus musculus with 12 samples.

Results

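Reference genes are transcripts used to scale the measurement of other transcripts, for example in RT-qPCR, where the signal of a gene is divided by the signal of the reference in the same sample. Such a division is only informative when the reference itself does not follow the treatment. The 8 genes described here are Hprt, Gapdh, Actb, Ppia, Tbp, Ywhaz, Gusb and Polr2a, taken by gene name from a table of 29486 genes. All 8 were found, and all 8 were among the 15571 genes that passed the filter, a normalised count of 10 or more in 4 or more libraries. The rule that selects them uses names and no measured value.

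Total mRNA (polyA RNA) of primary splenic B cells from C57BL/6Babr mice was sequenced in 12 libraries, 4 from each of 3 conditions. All cells were activated in culture with LPS (10 μg/ml), a bacterial mitogen. The first group (LPS) had LPS for 48 h, and the second (LE) had LPS for 48 h and then etoposide (20 μM) for 4 h. The third (LEKU) had LPS for 47 h, then KU55933 (10 μM, spelled KU59933 in a label) for 1 h, and then etoposide for 4 h. Etoposide is a topoisomerase II inhibitor that leaves double-strand breaks in DNA, and KU55933 inhibits ATM, the kinase that signals such breaks. No group had KU55933 without etoposide, so an effect of the inhibitor on undamaged cells cannot be told apart from its effect on the damage response. The study's design text places collection of control cells 4 h later as well, but the sample labels give 48 h of LPS only, so time in culture may differ between LPS and the other groups. The labels do not say whether replicates came from separate mice, and each condition carried Illumina indexes that no other condition carried.

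The deposited values limit what can be said. Within a condition, the columns of the 4 libraries were proportional across all genes, to within 1.4e-14 in log2 units. They are therefore means fitted by condition times a library's size factor, without any spread between replicates. Each gene had 1 independent value for a condition, so no test was made, and no difference below can be compared with replicate error. A gene is counted as changed past the threshold when its fitted counts differed by more than 1.5-fold (0.585 on the log2 scale), which is a rule of size. In units of 1000000, the columns summed to 20.7 to 23.9 with LPS, 22.5 to 30.6 in LE and 20.4 to 25.1 in LEKU. If the fitted counts are read as reads, counting error alone was at most 0.031 on the log2 scale for any of the 8 genes in any comparison, a lower limit of the true error.

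Of the markers of B cells, 6 of 6 were above the filter, with summed normalised counts of 133358 with LPS, 72608 in LE and 81807 in LEKU. Past 1.5-fold, 5 of them were lower and 0 higher in LE against LPS (16.7% and 21.7% of all genes). The count of lower ones ran from 2 with library totals to 6 with median of ratios. Of 6 T cell markers only Lck was above the filter, and Cd3e, Cd3d, Cd3g, Cd4 and Cd8a were below. The T cell list summed to 431.5, 300.9 and 276.1 in the same order. Macrophage markers, all 6 above the filter, summed to 416.8, 464.6 and 427.1. They moved apart within this sum, with 3 higher and 1 lower past 1.5-fold in LE against LPS (21.7% and 16.7% of all genes). Cd68 was at 104.4, 209.8 and 173.6 and Itgam at 219.9, 128.0 and 113.8. Csf1r (4.17, 10.26 and 9.627) and Cd14 (5.165, 24.02 and 40.22), named after their values were seen, passed the filter only through groups with etoposide. Their place among the higher ones, and the median log2 fold change of 0.73, thus partly follow from the filter. Red blood cell markers, 3 of 6 above the filter with Hba-a1, Hba-a2 and Alas2 below, summed to 217.9, 184.3 and 115.4. The part of these levels in the results below was not tested. In bulk RNA, fewer cells of a type and less RNA per cell cannot be told apart.

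The 8 genes were adopted as references because their products serve functions that nearly all cells share. Hprt salvages purine bases, Gapdh is a glycolytic enzyme, Actb is the cytoplasmic beta-actin and Gusb is a lysosomal hydrolase. Ppia is the prolyl isomerase cyclophilin A, and Ywhaz is a 14-3-3 protein, an adaptor that binds phosphorylated proteins. Tbp is the TATA-binding subunit of the general factor TFIID, and Polr2a is the largest subunit of RNA polymerase II. The last 2 belong to the machinery that transcribes the other 6.

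The start regions of these genes differ in sequence, which is shown because Tbp itself binds TATA-type promoters. Promoters of 6 of the 8 were found in RefSeq (build GRCm38.p6). No entry was found for Actb and Ywhaz. The 30 bases below run from 40 to 11 bases before the RefSeq start, 5′ to 3′ on the strand of the gene, with TATAAA in capitals where it occurs. For Ppia and Gapdh they lie inside the gene bounds given further below, which come from GENCODE and begin further upstream.
Hprt (chrX:52988038-52988067, plus strand): ggacggagcctgggcgggccgagagggcgg
Gapdh (chr6:125165784-125165813, minus strand): gcacatttcaaaaatgaggcgggtccaaag
Ppia (chr11:6415827-6415856, plus strand): cccgaaccgggTATAAAggaagccgcggcg
Tbp (chr17:15499848-15499877, plus strand): agtgtctcacagcttaagcacaacaaatcg
Gusb (chr5:130003060-130003089, minus strand): gggggagatattaatagatgtgaggcaggc
Polr2a (chr11:69758644-69758673, minus strand): gcgaatcTATAAAgggcgtcactcagccag
Ppia and Polr2a held the letters TATAAA in this window, as did 683 of 32851 RefSeq promoters (2.08%). The pair did not share a pattern of values, as given below. The letters CCAAT were found on neither strand of the 300 bases around the start in any of the 6, against 37.4% of all promoters. A match of letters is a description and not a binding site.

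In activated B cells without damage the 8 genes covered a wide range of levels. Per kb of transcript, the normalised count with LPS was 39107 for Actb, 30474 for Ppia and 27630 for Gapdh. The next were Ywhaz at 3490, Hprt at 3151 and Polr2a at 1648, and the lowest were Gusb at 934.7 and Tbp at 658.2. This order was not kept after damage. In LE, Actb, with 20759 per kb, stood below Ppia (31342) and Gapdh (24834), and Polr2a, with 2798, stood above Ywhaz (2534). Whether neighbours in this order differ beyond replicate error cannot be told from fitted means.

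**Figure D1:**
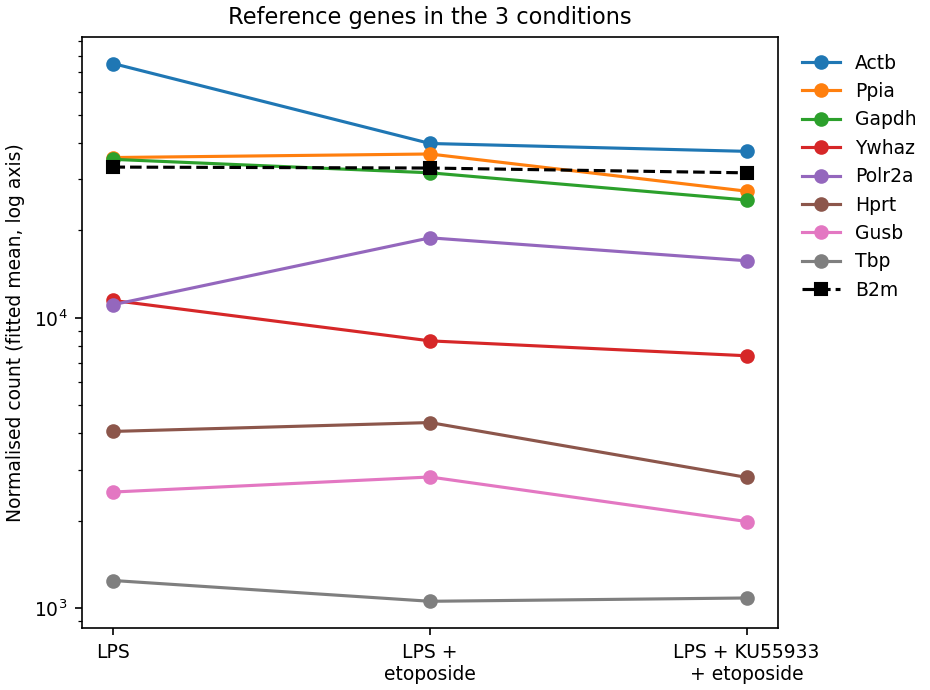
Normalised counts (fitted mean of 4 libraries, log axis) of the 8 reference genes and of B2m in the 3 conditions. Actb is at 75086, 39857 and 37447 in LPS, LE and LEKU, Polr2a at 11106, 18862 and 15725, and B2m (squares, broken line) stays between 31578 and 33055.

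The first comparison asks whether a reference gene follows DNA damage. In etoposide against LPS, 2 of the 8 genes passed 1.5-fold, Actb downwards and Polr2a upwards. Over all genes 38.4% passed in either direction (21.7% higher, 16.7% lower). The median log2 fold change of the 8 was −0.06, with 4 above and 4 below 0, and that of all genes was −0.03.

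Actb lies at chr5:142903115-142906754 on the minus strand (GRCm38). Its fitted counts in the 4 libraries with LPS were 61503, 68234, 70979 and 63958. In LE they were 39021, 43736, 52970 and 42399, and in LEKU 34290, 38668, 41425 and 42107. The columns with LPS were the highest. Columns of a condition differ only by their size factor, so whether conditions overlap reflects depth and is no check on replicates. Divided by the size factors, the count in LE was 0.531 times that in LPS, a log2 fold change of −0.91.

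Polr2a (chr11:69733997-69758637, minus strand) had fitted counts of 9097, 10093, 10499 and 9460 with LPS. The counts were 18466, 20697, 25067 and 20064 in LE and 14399, 16237, 17395 and 17682 in LEKU. The LE columns were the highest, again with differences within a condition set by the size factors alone. After size factors, Polr2a was 1.70-fold higher in LE than in LPS (log2 0.76).

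The other 6 genes stayed within 1.5-fold of LPS after etoposide. Ywhaz (chr15:36770770-36796929, minus strand) was nearest to the threshold, at 11474 with LPS and 8330 in LE (−0.46). Tbp (chr17:15499888-15528379, plus strand) was at 1245 and 1056 (−0.24). Gapdh (chr6:125161715-125166467, minus strand) was at 35145 and 31588 (−0.15). These 3 were lower with etoposide. Gusb (chr5:129989011-130003049, minus strand), with 2512 and 2830 (0.17), and Hprt (chrX:52988137-53021659, plus strand), with 4062 and 4358 (0.10), were higher by small amounts. Ppia (chr11:6415443-6419817, plus strand) was at 35655 and 36670 (0.04), and the sign of its change depended on the scaling of the libraries, from −0.04 to 0.18.

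The second comparison asks what inhibition of ATM adds in cells with etoposide. In LEKU against LE, only Hprt passed 1.5-fold, downwards, where 18.8% of all genes passed (7.12% higher, 11.7% lower). Of the 8 genes, 7 were below 0, with a median of −0.29 against −0.04 for all genes.

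The fitted counts of Hprt were 3327, 3691, 3840 and 3460 with LPS. They were 4266, 4782, 5792 and 4636 in LE and 2583, 2913, 3120 and 3172 in LEKU. The LEKU columns were the lowest, and the order of columns within a condition is that of the size factors. After size factors the normalised count was 4358 in LE and 2821 in LEKU, a fold of 0.647 (log2 −0.63). The value was close to the threshold, and ranged from −0.63 to −0.57 over the settings tried. With library totals, at −0.58, and with quantile normalization, at −0.57, it was no longer past it.

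Hprt was accompanied at smaller size by Gusb, with 1988 in LEKU (−0.51 against LE), Ppia with 27305 (−0.43) and Gapdh with 25455 (−0.31). Polr2a (−0.26), Ywhaz (−0.17) and Actb (−0.09) were lower by less. Tbp, at 1084 in LEKU, was the only member above its value in LE (0.04), and its difference was about as large as the counting error of 0.030.

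In LEKU against LPS, 2 genes passed 1.5-fold, both downwards, where 36.3% of all genes passed (20.1% higher, 16.2% lower). The comparison shares its libraries with both others. Actb was at 0.499 of its LPS value and Ywhaz at 0.645 (log2 −0.63). The fitted counts of Ywhaz were 9398, 10427, 10846 and 9773 with LPS and 6778, 7643, 8188 and 8323 in LEKU, and in LE 8156, 9141, 11071 and 8862. The highest LE library was the deepest of the 12, and after size factors LE (8330) lay between LPS (11474) and LEKU (7402). Of the other 6 genes, Polr2a was higher (0.50), and Hprt (−0.53), Gapdh (−0.47), Ppia (−0.38), Gusb (−0.34) and Tbp (−0.20) were lower. The split of 0 higher and 2 lower became 1 higher and 1 lower when library totals or quantile normalization set the scale. Polr2a was then past the threshold at 0.69 and 0.86, and Ywhaz within it at −0.45 and −0.22.

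**Figure D2:**
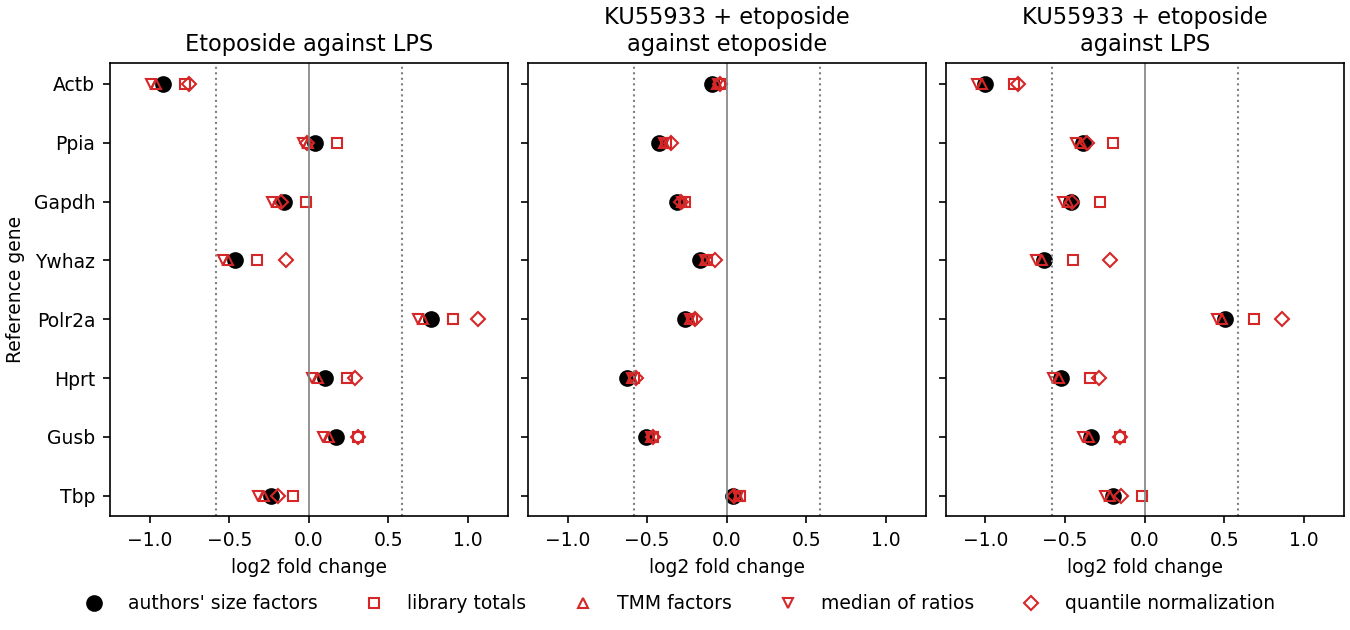
Log2 fold changes of the 8 genes in the 3 comparisons, with the authors' size factors (filled circles) and 4 other scalings (open red symbols). Dotted lines mark 1.5-fold, and Actb is left of the line and Polr2a right of it under every scaling with etoposide against LPS.

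Scaling by library totals shifted the median of all genes by 0.14 in LE against LPS and by 0.18 in LEKU against LPS. Relative to those medians the members keep the places given above. The direction of Actb, Ywhaz, Gapdh and Tbp (lower in LE than in LPS) and of Polr2a, Gusb and Hprt (higher) was the same under all scalings.

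The spread of a gene was taken as its highest minus its lowest condition on the log2 scale. Tbp had the smallest spread of the 8 at 0.24, a fold of 1.18, and 14.5% of all genes had a smaller one. Next were Ppia (0.43), Gapdh (0.47) and Gusb (0.51), all within 1.5-fold. Hprt (0.63), Ywhaz (0.63), Polr2a (0.76) and Actb (1.00) were past 1.5-fold, and 74.5% of all genes had a smaller spread than Actb. So 4 of 8 reference genes were past 1.5-fold over the 3 conditions, where 50.7% of all genes were, and 40.7% of the 5422 genes with a mean of 1000 or more. The median spread of the 8 was 0.57, that of all genes 0.59 and that of the genes with a mean of 1000 or more 0.49. With library totals or quantile normalization, 2 of the 8, Actb and Polr2a, were past 1.5-fold.

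B2m, the light chain of MHC class I, was also tried as a normalizer by the study and serves for comparison. Its normalised count was 33055 with LPS, 32805 in LE and 31578 in LEKU. The spread was 0.066, a fold of 1.05, and 1.45% of all genes had a smaller one. None of the 8 members came as low with the authors' size factors. This order can change with the scaling. Library totals shifted all genes by 0.14 in LE against LPS, more than the spread of B2m. With them Tbp was at −0.10 in LE against LPS, 0.08 in LEKU against LE and −0.02 in LEKU against LPS.

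**Figure D3:**
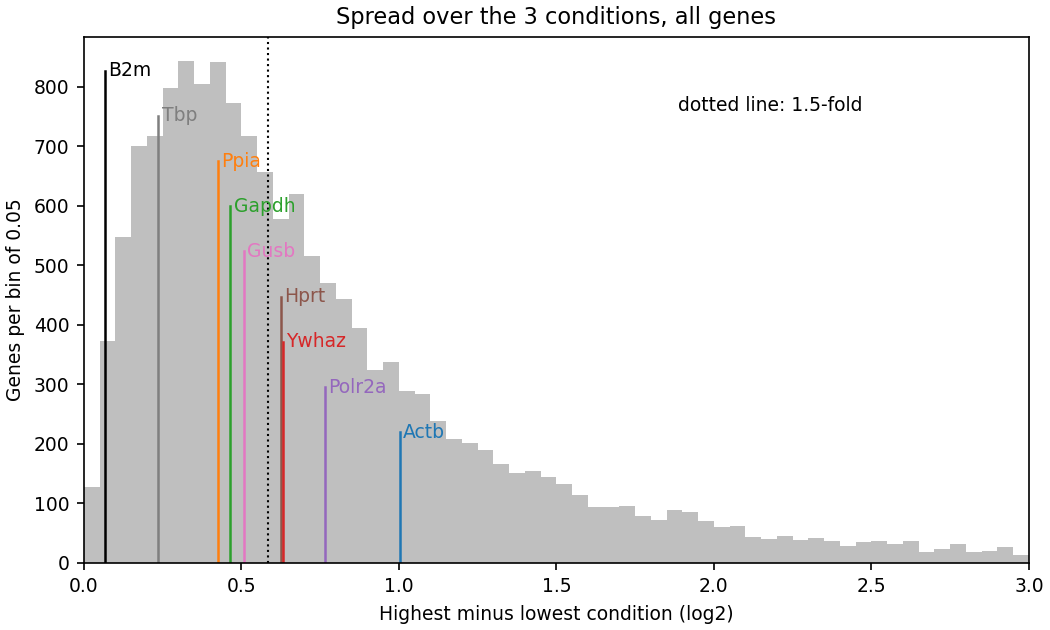
Histogram of the spread over the 3 conditions (highest minus lowest condition, log2, bins of 0.05, shown up to 3) for all genes past the filter. The 8 reference genes and B2m are marked by lines whose heights only separate the labels, from B2m at 0.066 to Actb at 1.00, with the dotted line at 1.5-fold.

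A ratio of 2 genes in the same library does not depend on a factor applied to the whole library, as size factors, library totals, TMM factors and median of ratios are. Quantile normalization is not such a factor and can change ratios: with it, the change of Gapdh in LE against LPS was −0.17 and that of Ywhaz −0.14, in place of −0.15 and −0.46. The ratios below are those without it. Of the 28 pairs among the 8 genes, 14 kept their ratio within 1.5-fold over the 3 conditions, 14 did not, and 6 of the latter were past 2-fold. The share among pairs of other genes was not calculated, so whether these pairs are steadier than others cannot be told. The steadiest ratio was that of Ppia to Gusb, with log2 values of 3.83, 3.70 and 3.78 in LPS, LE and LEKU, a range of 1.10-fold. It was followed by Hprt to Gusb (1.14-fold), Gapdh to Ppia (1.14-fold) and Hprt to Ppia (1.15-fold). These 4 genes serve purine salvage, glycolysis, protein folding and lysosomal breakdown.

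The widest ratio was that of Actb to Polr2a, with log2 values of 2.76 with LPS and 1.08 in LE, a range of 3.20-fold. Ywhaz to Polr2a covered 2.34-fold, Actb to Gusb 2.12-fold and Hprt to Polr2a 2.04-fold. Hprt to Actb covered 2.02-fold and Tbp to Polr2a 2.00-fold. Averaged over the 7 pairs of each gene, the SD of the log2 ratio over the 3 conditions was lowest for Gapdh (0.24) and Ppia (0.24). It was 0.27 for Gusb, 0.29 for Hprt, 0.31 for Ywhaz and 0.31 for Tbp, and highest for Actb (0.50) and Polr2a (0.58). Tbp, with the smallest spread by size factors, was therefore not the gene with the steadiest ratios to the other members.

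**Figure D4:**
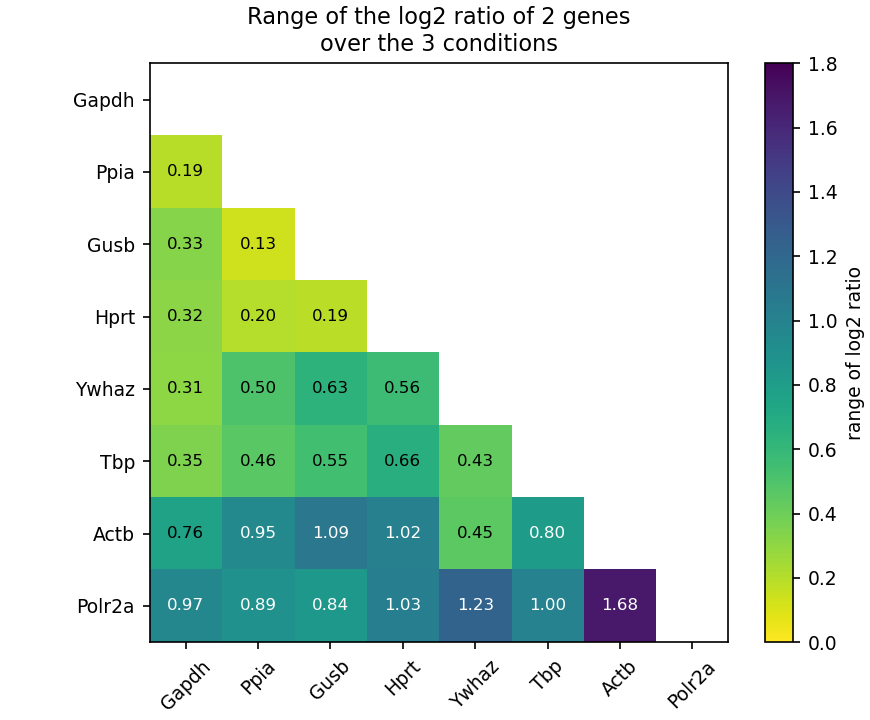
Range of the log2 ratio over the 3 conditions for each of the 28 pairs of reference genes, from 0.13 for Ppia to Gusb to 1.68 for Actb to Polr2a. Darker cells are wider ranges, and the rows of Actb and Polr2a hold all 6 pairs past 2-fold.

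The choice of reference changes what is read for other genes, which can be followed in the same libraries. Trp53 encodes p53, Cdkn1a the p53-induced inhibitor of cyclin-dependent kinases p21, and Gadd45a a stress protein that p53 also induces. By size factors, Trp53 was at 5935, 5495 and 4926 in LPS, LE and LEKU, a log2 fold change of −0.11 in LE against LPS. Relative to Hprt, which the study used for RT-qPCR of LPS-activated cells with and without etoposide, the change was −0.21. Relative to Polr2a it was −0.88, a fold of 0.545, and relative to Actb it was 0.80, a fold of 1.74. Trp53 would thus read as past 1.5-fold lower with 1 reference and past 1.5-fold higher with another, with 4 references above 0 and 4 below.

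In LEKU against LE, Trp53 was at −0.16 by size factors. It was at 0.47 relative to Hprt, the highest of the 8 references, and at −0.20 relative to Tbp, the lowest. In LEKU against LPS it was at −0.27 by size factors and 0.26 relative to Hprt, so the sign differed between the 2 readings. The study's captions name no reference for its RT-qPCR with KU55933, so these values are no reading of that experiment. Relative to B2m the 3 changes were −0.10, −0.10 and −0.20, near those by size factors.

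Cdkn1a was at 410.9, 13347 and 10688 in LPS, LE and LEKU. It was higher in LE than in LPS with every reference, from 19.1-fold relative to Polr2a to 61.1-fold relative to Actb. With KU55933 the differences were smaller and the reference decided the sign. LEKU against LE ranged from 0.780-fold relative to Tbp to 1.24-fold relative to Hprt, with 3 references above 0 and 5 below. Gadd45a was at 129.2, 289.8 and 297.1. In LE against LPS it was past 1.5-fold with 7 of 8 references, up to 4.21-fold with Actb, and at 1.32-fold with Polr2a. In LEKU against LE it was at 1.02-fold by size factors and at 1.58-fold relative to Hprt.

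**Figure D5:**
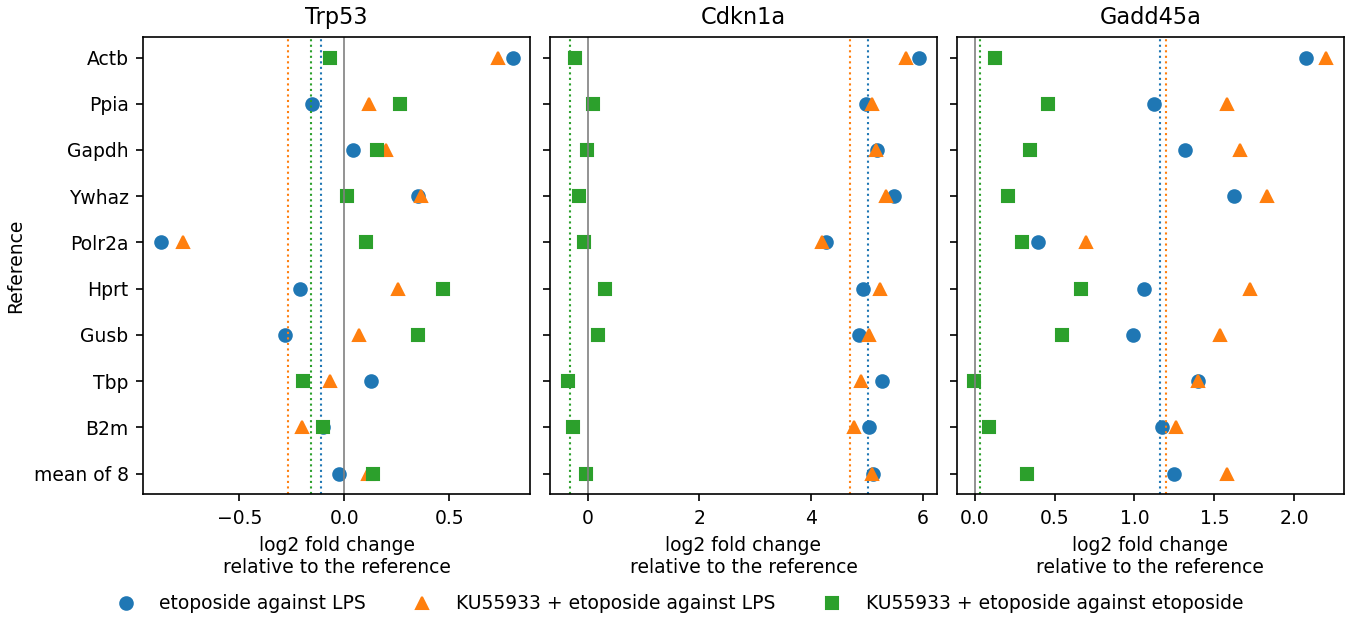
Log2 fold changes of Trp53, Cdkn1a and Gadd45a relative to each of the 8 reference genes, to B2m and to the mean log2 value of the 8, in the 3 comparisons. Dotted lines give the change by size factors; Trp53 in LE against LPS (circles) spans −0.88 to 0.80.

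Families of related genes were followed to see whether each reference gene moved alone. Counts give the genes past 1.5-fold, and each list includes its reference gene. They are read against the shares of all genes: 21.7% higher and 16.7% lower in LE against LPS, 7.12% and 11.7% in LEKU against LE, and 20.1% and 16.2% in LEKU against LPS. In the actin cytoskeleton list of 20 genes (actins and proteins that assemble, cap or cut filaments), 13 were lower and 0 higher in LE against LPS, where 16.7% of all genes were lower. The median was −0.68 against −0.03 for all genes. Actr3, a subunit of the Arp2/3 complex that nucleates branched filaments, was at 19534 with LPS and 8183 in LE (−1.26), and Coro1a at 24084 and 11013 (−1.13). At the other end were the actin-monomer binder Tmsb10 (0.03) and the filament-severing Cfl1 (−0.15). With library totals or quantile normalization 8 of the 20 were lower past the threshold. Between LE and LEKU, 1 was higher in LEKU and 0 lower. This was Actg1, the other cytoplasmic actin, with 27737, 16512 and 26182 in LPS, LE and LEKU, named after its values were seen. In LEKU against LPS, 13 were lower and 0 higher (16.2% of all genes lower), with 10 lower by library totals and 7 by quantile normalization.

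Of 12 RNA polymerase II subunits, 2 were higher in LE against LPS, Polr2a and Polr2h (735 and 1118, 0.60), and 0 were lower. The share of all genes higher was 21.7%, so this count is not above the background. With TMM factors or median of ratios, 1 was higher. The median was −0.04, and its sign changed with the scaling. Polr2b, the second largest subunit and named after its values were seen, was at 4392 and 4413 (0.01). The lowest were Polr2e (−0.33) and Polr2k (−0.20). Of the same subunits, 1 was higher and 1 lower in LEKU against LE. Polr2g, with 1633 and 2929 (0.84), and Polr2h, with 1118 and 719.5 (−0.63), were these, the former named after its values were seen. In LEKU against LPS only Polr2g was past 1.5-fold (0.94), and Polr2a was added under library totals and quantile normalization.

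Among 18 genes of purine salvage and synthesis, 3 were higher and 3 lower in LE against LPS (median 0.12), near the shares of all genes (21.7% and 16.7%). Quantile normalization gave 5 higher, and median of ratios 5 lower. The highest were Aprt, the adenine counterpart of Hprt, with 1969, 5929 and 3567 in LPS, LE and LEKU, and adenosine deaminase Ada with 405.8, 807.7 and 222.6. The lowest were adenosine kinase Adk (−0.90) and Ppat (−0.76), the first enzyme of purine synthesis. With KU55933 added to etoposide, 5 were lower (11.7% of all genes) and 0 higher, and 17 of 18 were below 0 (median −0.36). Aprt (−0.73) and Ada (−1.85) were among the lower ones, as was Hprt. The count below 0 was 17 under every scaling. Against LPS, LEKU had 2 higher and 5 lower (20.1% and 16.2% of all genes), with 1 higher under TMM factors and median of ratios. The median was −0.42, and −0.24 with library totals and −0.22 with quantile normalization.

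Of 15 glycolytic genes, 2 were lower in LE against LPS and 0 higher (median −0.34), where 16.7% of all genes were lower. These were Pfkp, a phosphofructokinase, with 6399 and 2645 (−1.27), and hexokinase Hk2 with 2650 and 1531 (−0.79). The highest were Pfkl (0.33) and Pgam1 (−0.06). Against LE, 3 were lower and 0 higher in LEKU (median −0.30, 11.7% of all genes lower). With library totals, TMM factors, median of ratios or quantile normalization, 2 were lower. In LEKU against LPS, 8 were lower (16.2% of all genes) and 0 higher, with all 15 below 0 and a median of −0.66. Library totals and quantile normalization gave 6 lower, and 14 below 0 with the latter. Gapdh, at −0.47, was within the threshold there.

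All 7 genes of the 14-3-3 family were below 0 in LEKU against LPS (median −0.47), 3 of them past 1.5-fold, where 16.2% of all genes were lower. These included Ywhaz, Ywhae (10941 with LPS and 4869 in LEKU, −1.17) and Ywhah (−0.66). Library totals and quantile normalization gave 1 lower, and 6 of 7 were below 0 with the former. In LE against LPS, 1 was lower, Ywhae (−1.08), and 0 higher, and 2 were lower with TMM factors or median of ratios. Ywhab (0.04) and Sfn (0.01) were highest. From LE to LEKU, 0 were past the threshold in either direction.

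Of 22 lysosomal hydrolases, 6 were higher and 3 lower in LE against LPS, near the shares of all genes (21.7% and 16.7%). The median of −0.12 changed its sign with library totals. Man2b1, a lysosomal mannosidase, was at 3120, 11284 and 5900 in LPS, LE and LEKU, and the protease Ctsd at 1972, 4685 and 3378. The sialidase Neu1, with 1291, 585.5 and 1681, and its partner Ctsa, with 2222, 1211 and 2020, ran the opposite way. From LE to LEKU, 5 were higher (7.12% of all genes) and 1 lower (11.7%), and 15 of 22 were above 0 (median 0.18), while Gusb was at −0.51. In LEKU against LPS, 5 were higher and 0 lower (20.1% and 16.2% of all genes, median 0.38), and 9 were higher with library totals.

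Of 15 cyclophilins 14 were above the filter, and 1 was higher and 2 lower in LE against LPS, against 21.7% and 16.7% of all genes. The median was −0.05, with a sign that changed with the scaling. Library totals and quantile normalization gave 1 lower. Ppil3 (1.28) and Ppwd1 (0.44) were highest and Ppil1 (−0.98) and Nktr (−0.65) lowest. In LEKU against LE, 0 were higher and 1 lower (7.12% and 11.7% of all genes, median −0.13). Against LPS, LEKU had 1 higher and 1 lower (20.1% and 16.2% of all genes), with 0 higher under TMM factors and median of ratios. The median of −0.30 was −0.12 with library totals and −0.0073 with quantile normalization. Of 15 TFIID subunits 14 were above the filter. In LE against LPS, 2 were higher and 0 lower, against 21.7% and 16.7% of all genes. The median was 0.03, with a sign that changed with the scaling, and median of ratios gave 2 lower. The 2 higher genes were Taf13, with 336.2 and 730.0 (1.12), and Taf7, with 441.6 and 912.9 (1.05). Taf3 (−0.55) and Taf1 (−0.52) were lowest. In LEKU against LE, 0 were past 1.5-fold, and in LEKU against LPS 2 were higher and 1 lower.

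The counts of some members may hold reads of near-identical copies. With copies taken at 90% identity or more over at least 50% of the transcript, Gapdh had 156 elsewhere in the annotation, of which 154 were not protein coding. Of these, 109 were listed in the table, and their summed counts were 110% of the Gapdh count itself with LPS, 113% in LE and 111% in LEKU. The 22 copies of 99% identity or more summed to 96.9%, 98.4% and 96.7%. Whether reads counted for copies this alike came from Gapdh cannot be told from the table. This need not hold for the copies of lower identity. Adding the 22 copies to Gapdh gave log2 fold changes of −0.14, −0.32 and −0.47 in place of −0.15, −0.31 and −0.47. Adding all 109 gave −0.14, −0.32 and −0.46. Ppia had 2 copies, of which Gm17494, with 99.6% identity, was at 672.1, 679.9 and 495.4. Actb had 2, of which Lrrc58, a protein-coding gene, was listed at 1753, 2643 and 2552. Lrrc58 matched only 69.7% of the Actb transcript, at 90.6% identity, so it is not a near-identical copy. Its counts were higher in LE than in LPS, where those of Actb were lower. Whether any of its reads came from Actb was not tested. No copy was found for Hprt, Tbp, Ywhaz, Gusb or Polr2a.

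The genes whose pattern was most like each member were named by the distance between centred log2 values over the 3 conditions, among genes with a mean within 2-fold. With 3 points for each gene, close neighbours are plentiful: Tbp had 268 genes within a distance of 0.1 among 4687. Nearest to Hprt were Amd1 (0.026), Alyref (0.036) and Txn1 (0.039). Gapdh was nearest to Pgk1 (0.021), the next enzyme of glycolysis, then to Atp5a1 and Eif4b. Ppia was nearest to Ptma (0.038), Prpf8 and Ybx1, and Gusb to Skp1a (0.0046), Pnp and Rab1. Actb had 1 neighbour within 0.1, Hnrnpa2b1 (0.051), with 42568, 23502 and 21085, and then Rnf213 (0.26) and Serinc3 (0.28). Ywhaz was nearest to Morf4l1 (0.022), Caprin1 and Bptf, Tbp to Lamtor1 (0.0032), Utp11l and Lamtor5. Polr2a was nearest to Srp72 (0.037), Ccnl2 and Kmt2d, the last with 8980, 14962 and 13648.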

How the data were processed

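The authors trimmed reads with Trim Galore (cutadapt 1.2.1), mapped them to GRCm38 with TopHat2 2.0.12, and used HTSeq for counts per Ensembl gene and DESeq2 1.6.3 for the fit, per the labels and the methods. The deposited table holds a signal for each library, the normalised count described in the report. The authors' 3 comparisons hold fold changes, errors and p-values, which were not used; only their mean signal over 12 libraries was taken, to recover size factors from 5421 genes with a mean of 1000 or more (root mean square deviation 0.0040 on the log2 scale). A fit of this kind can draw fold changes of weakly counted genes toward 0.

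Values were divided by size factors and compared as log2(value + 1) in Python 3.11.15 (numpy 2.4.6, pandas 2.3.3, scipy 1.17.1, matplotlib 3.10.9). The planned limma test needs replicate values and was not run. Positions, transcript lengths and copies (blastn 2.17.0) came from GENCODE M21 (GRCm38), promoters from RefSeq. Functions were tested on simulated data. The members and lists were chosen with earlier results of these data known. Named genes are the members, Trp53, Cdkn1a, Gadd45a, B2m, the 2 highest and 2 lowest of each list in LE against LPS with a mean of at least 100, the 3 nearest genes by pattern, and the 5 genes of smallest spread with a mean of at least 1000. Genes named outside this rule are said to be, apart from cell type markers and copies of members. Some genes of this rule are not reported here. The alternatives were library totals, TMM factors (trims of 30% and 5%), median of ratios, quantile normalization, pseudocounts (0.5, 5), the filter (none, or 50 counts), folds of 1.25 and 2, leaving out each replicate number, and the mean of the 8 genes as the reference. Size factors set on genes with a mean of 100 or more, and Gapdh with its copies, were added after seeing the data.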

Additional observations from a re-analysis of the deposited data

How the results depend on the processing

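No paired analysis was possible because the columns are fitted means of a condition and the results come from no test. Leaving out each replicate number in turn changed no value, since the columns of a condition differ only by a factor, so this says nothing about stability. In etoposide against LPS the count of 2 became 0 at 2-fold, which 20.2% of all genes passed. In KU55933 and etoposide against etoposide the count of 1 became 0 with library totals, quantile normalization and 2-fold, and 3 at the lower fold. Of all genes, 6.37% passed 2-fold there and 41.4% the lower fold. In KU55933 and etoposide against LPS the count of 2 became 7 at the lower fold and 1 at 2-fold. The shares of all genes past these folds were 59.7% and 16.9%. The median spread of 0.57 became 0.46 with library totals, 0.54 with TMM factors and 0.46 with quantile normalization. With the mean of the 8 genes in place of Hprt, the log2 fold change of Trp53 was −0.025, 0.14 and 0.11 in the 3 comparisons, in place of −0.21, 0.47 and 0.26. The cause of these changes was not tested. Pseudocounts, the filter and median of ratios changed no count of reference genes past the threshold. The depth allows counting errors of at most 0.031 on the log2 scale, and the error between replicates is unknown.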

Other observations

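Of a list of 25 other genes in common use as references, 24 were above the filter and Rn18s was not listed. By the authors' size factors, their median spread over the 3 conditions was 0.28 on the log2 scale, a fold of 1.21. That of the 8 genes above was 0.57. Past 1.5-fold were 3 of the 24 and 50.7% of all genes. The median spread of the 8 was smaller with library totals or quantile normalization, as given above, and that of the 24 was not calculated under other scalings. In etoposide against LPS, 0 were higher and 2 lower past 1.5-fold (21.7% and 16.7% of all genes), and with library totals 0 were past it. The RNA-binding protein gene Nono was at 12987 and 8574 (−0.60), and Alas1, the entry enzyme of heme synthesis, at 967.9 and 1173 (0.28). In KU55933 and etoposide against etoposide, 0 were past the threshold in either direction (7.12% and 11.7% of all genes). In KU55933 and etoposide against LPS, 0 were higher and 2 lower (20.1% and 16.2% of all genes). Quantile normalization gave 2 higher and 1 lower there, and library totals 1 of each. The median of the list in etoposide against LPS was −0.01, and its sign changed with the scaling.

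The 5 genes of smallest spread with a mean of at least 1000 were Ppib (1610, 1610 and 1612 in LPS, LE and LEKU, a spread of 0.0023), Rnf126 (0.0082), Rpl27 (0.0087), Sec16a (0.0097) and March6 (0.015). They were picked as the extreme of many genes on these same values. Ppib, a cyclophilin like Ppia, is also on the list of other references.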
